A study of Mus musculus with 47 samples.

Results

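Interferon-stimulated genes and the genes that sense foreign or displaced nucleic acids were examined in tissues of embryos carrying point mutations of Daxx, a histone chaperone that deposits the histone variant H3.3. The members were 49 genes fixed by symbol, of which 47 had a row in the gene count table of 20456 genes. All 47 passed the filter on low counts, which left 16892 genes to test. Oas1b and Mx2 were not analysed here. The question was whether an interferon response accompanies the loss of retroviral repression in either mutant.

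S226A was designed to disrupt the binding of Daxx to H3.3 and Y130A its binding to Atrx, and both alleles also carry silent changes. By the labels the strain was C57BL/6, and by the study's methods the alleles were knocked in by Cas9 in C57BL/6N zygotes, founders were backcrossed to C57BL/6J, and heterozygotes were intercrossed to give embryos at E18.5. Liver, lung and brain came from 4 homozygous S226A embryos, 4 homozygous Y130A embryos and wild-type embryos of the same litters, 4 litters for each mutation. Every group held 4 libraries apart from wild-type lung in Y130A litters, which held 3, and the 47 libraries came from 17 embryos. The 4th wild-type lung of the S226A litters came from another embryo of the same litter than the 4th liver and brain. The labels name no treatment. Each wild-type group served as control for its own litters only, and every library came from bulk tissue.

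Cells read viral or displaced endogenous RNA through the helicases RIG-I (the product of Ddx58) and MDA5 (Ifih1), which signal through the adaptor Mavs. DNA in the cytosol is read by cGAS, which signals through STING (Tmem173). Both routes end in type I interferon, whose receptor acts through transcription factors that include Stat2 and Irf9 at interferon-stimulated response elements. Transcripts of endogenous retroviruses are known ligands of these sensors, and Adar and Samhd1 are known to restrain that response by editing double-stranded RNA and by degrading deoxynucleotides.

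Promoter entries of RefSeq on GRCm38.p6, spanning 250 bases before to 50 bases after a gene's start, were present for 37 of the 49 members. The core of the response element was searched on both strands as GAAA, any 2 bases and GAAA, and the gamma-activated site as TTC, any 3 bases and GAA, which reads the same on both strands. A member with several entries counted as a match when any entry held the motif. The response element core occurred in 19 of the 37 members (51.4%), against 3.99% of 27025 genes with an entry. The gamma-activated site occurred in 11 members (29.7%), against 9.55% of those genes. Bases were shared between matches of the 2 motifs in 2 member promoters. The stretches below are shown because their genes recur in the results: Isg15, Rsad2 and Ifit1 are sentinels of interferon signalling, Bst2 and Gbp2 were called higher in S226A liver, and Ifitm6 was called in both liver and lung. Capitals mark the motif, the response element core or its reverse complement in the first 5 and the gamma-activated site in Ifitm6, and each stretch reads 5′ to 3′ on the gene's strand.
Isg15 (minus strand, chr4:156200871-156200900): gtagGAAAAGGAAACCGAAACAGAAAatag
Rsad2 (minus strand, chr12:26456555-26456580): ggtccaacTTTCATTTTCagaaaaca
Ifit1 (plus strand, chr19:34640796-34640821): agtctcagTTTCAGTTTCtcactgct
Bst2 (minus strand, chr8:71537580-71537609): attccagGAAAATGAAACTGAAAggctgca
Gbp2 (plus strand, chr3:142620596-142620621): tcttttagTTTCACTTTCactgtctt
Ifitm6 (minus strand, chr7:141016893-141016910): atatgaacTTCCTTGAAa
The Isg15 stretch held 3 overlapping matches, the first of them 78 bases before the start. Ifit1 held another match 104 bases before the start, outside the stretch shown. Bst2 held 2 overlapping matches, and its stretch also holds a gamma-activated site that is not capitalised. Starts are those of RefSeq. The GENCODE gene model of Ifitm6 begins further upstream, so that this stretch lies inside the gene as GENCODE draws it, and the Gbp2 stretch runs across the GENCODE start. A match describes letters only, and no binding was measured.

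In wild-type embryos the members were lowest in brain. Levels were expressed as CPM (counts scaled to a common library size with TMM factors) per kilobase of exon so that genes of different length could be compared. The median over the 47 members was 11.8 in liver (8 libraries), 5.58 in lung (7 libraries) and 0.745 in brain (8 libraries), while the median over all genes tested lay between 4.03 and 4.17 in the 3 tissues. Liver had the highest median level for 39 members, lung for 8 and brain for 0. Among all genes tested the shares were 33.6%, 26.6% and 39.8%. Every wild-type liver library exceeded every brain library for 44 members (32.4% of all genes), and every lung library exceeded every brain library for 33 (29.97% of all genes). Liver and lung could not be ordered for 41 of the 47 members, since their libraries overlapped, as they did for 50.2% of all genes. The 5 members with all liver libraries above all lung libraries were Rsad2, Mavs, Ifitm6, Ifi35 and Dtx3l (23.6% of all genes), and Ifitm1 alone had all lung libraries above all liver libraries (26.1% of all genes).

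**Figure D1:**
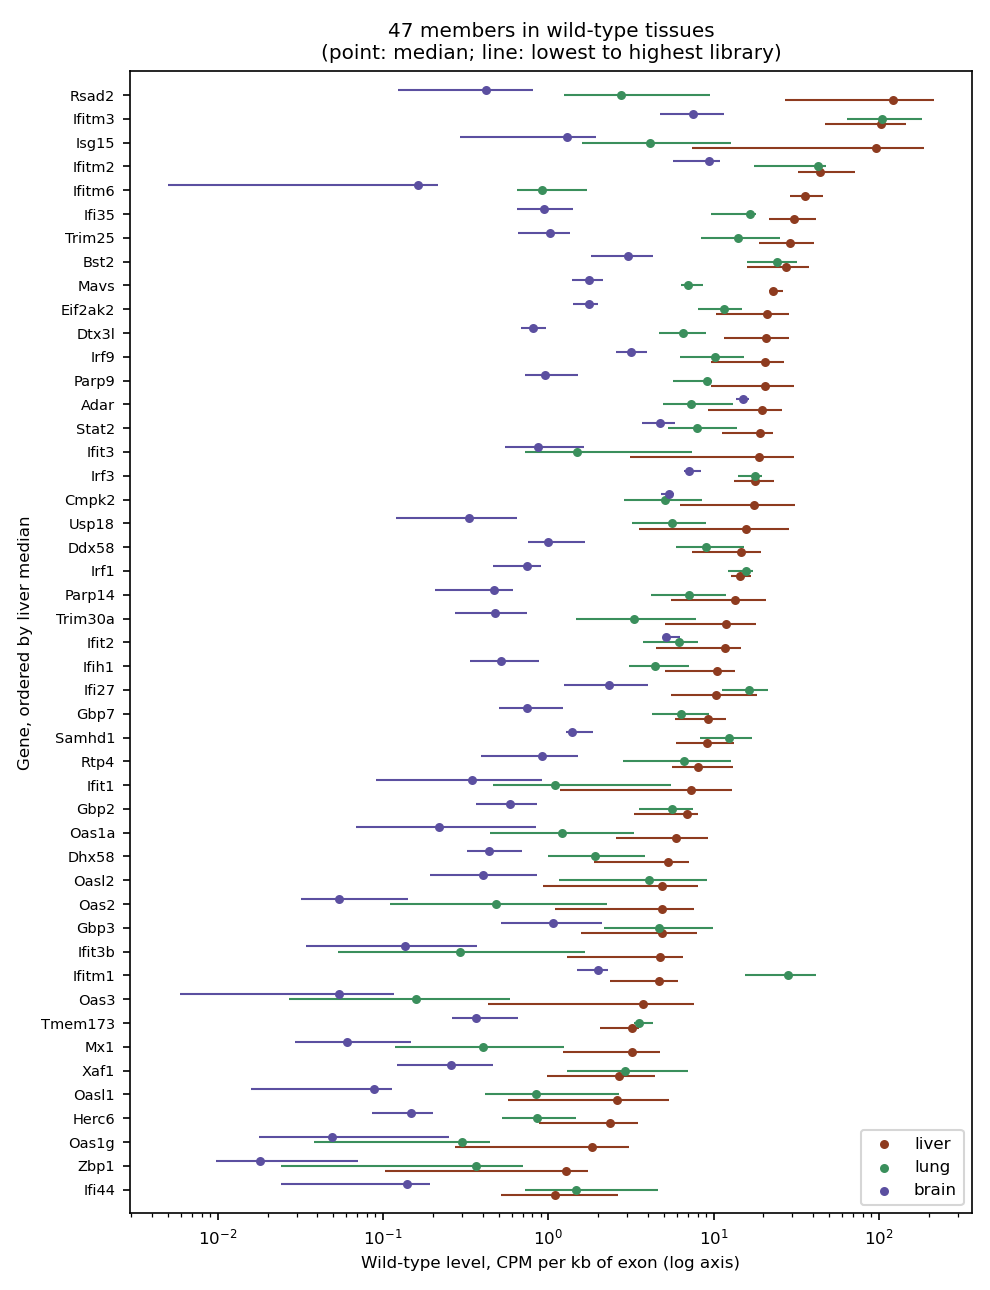
Level of each of the 47 members in wild-type liver (8 libraries), lung (7) and brain (8), as CPM per kilobase of exon on a log axis. Points are medians, lines run from the lowest to the highest library, and genes are ordered by their liver median. Brain lies to the left for nearly every gene, and Rsad2 tops the liver order at a median of 122.5. The Ifitm6 brain line is drawn from 0.005, since its lowest library is at 0.

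Rsad2, which encodes the antiviral enzyme viperin, had the highest liver level of all members, with a median of 122.5 CPM per kilobase and a range of 27.2 to 215. Isg15, a ubiquitin-like modifier, had a liver median of 96.7 and ranged from 7.42 to 187.3. Ifitm3, a membrane protein that blocks viral entry, stood at 103.1 in liver and 104.5 in lung. These wild-type ranges were wide within 1 tissue of 1 genotype. In brain, Adar led at 14.99 (13.8 to 16.4), above every wild-type lung library (4.95 to 13.1). Adar shares 16.8% of its exon bases with Chrnb2 on the opposite strand, and whether the authors counted by strand was not stated. Zbp1, a sensor of Z-form nucleic acid, was the lowest member in brain at 0.018.

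Total counts per library ran from 15722147 to 26190403 in the 24 libraries of the S226A litters and from 36351738 to 54885020 in the 23 of the Y130A litters, so the sets differed in depth throughout. Marker lists for hepatocytes, lung epithelium and neurons were highest in the tissue named on the labels. Daxx transcripts did not pass the test in any of the 6 comparisons (log2 fold changes from -0.12 to 0.04), which checks nothing here because the alleles are point mutations. Squamous epithelial transcripts stood apart in the wild-type liver of the S226A litters, replicate 2, at 1201 CPM summed over 9 markers, and in Y130A liver replicate 1, at 788.9 CPM, against at most 9.08 CPM in every other liver. Transposable elements were not analysed here, so that the retroviral side is represented here by Tmem267 alone, a gene the study places near an endogenous retrovirus. Tmem267 rose in both mutants in all 3 tissues, with log2 fold changes between 2.18 and 2.57 and adjusted p between 0.000492 and 0.0249 (edgeR).

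S226A livers showed changes in 5 of the 47 members, and Isg15, Rsad2 and Ifit1 were not among them. Ifitm6, Ifi27, Bst2 and Gbp2 rose and Ifit2 fell, by edgeR's quasi-likelihood test at an adjusted p below 0.05. The 4 higher members were 8.51% of 47 and the 1 lower member 2.13%, against 6.14% and 5.54% of all genes tested in the same directions, so the shares were near those of the whole transcriptome. The median log2 fold change was 0.05 over the members and -0.01 over all genes. Ifit1, Ifit3, Isg15, Usp18, Rsad2 and Oas1a did not pass the test.

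Ifitm6, of the interferon-induced transmembrane protein family, lies on chromosome 7 at 141015699 to 141017924 (minus strand, GRCm38). Its level was 58.8, 60.2, 63.7 and 56.9 CPM in the 4 S226A livers and 27.2, 32.1, 26.1 and 26.2 CPM in their wild-type controls. Every mutant liver exceeded every control, with a log2 fold change of 1.10 ± 0.21 (SE) and an adjusted p of 0.000181 (edgeR). In bulk tissue more cells of a type and more RNA per cell cannot be told apart.

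Ifi27, which encodes a small interferon-induced membrane protein, measured 39.6, 43.7, 38.2 and 37.95 CPM in S226A livers and 15.9, 10.97, 22.5 and 26.8 CPM in controls. The groups did not overlap, and the log2 fold change was 1.07 ± 0.29 (SE, adjusted p = 0.00933, edgeR). Bst2, or tetherin, holds budding virions at the cell surface. It measured 41.4, 58.3, 38.9 and 41.5 CPM in S226A livers and 34.1, 15.8, 23.2 and 29.6 CPM in controls. Mutant livers were again all above controls, with a log2 fold change of 0.81 ± 0.22 (SE, adjusted p = 0.00907, edgeR). For Gbp2, a guanylate-binding GTPase that acts on intracellular pathogens, the values were 33.1, 32.8, 24.8 and 34.1 CPM against 20.2, 17.0, 18.1 and 17.9 CPM. That difference was 0.77 ± 0.23 on the log2 scale (SE, adjusted p = 0.0207, edgeR), with no overlap.

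Ifit2, whose protein binds foreign RNA and curbs its translation, went the other way. Its level was 24.7, 27.6, 19 and 22.2 CPM in S226A livers and 41.9, 28.1, 55.9 and 37.3 CPM in controls, and it fell by 0.80 ± 0.21 on the log2 scale (SE, adjusted p = 0.00975, edgeR). The lowest control lay just above the highest mutant.

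Leaving out 1 control decided most of these calls. Without the wild-type liver of the S226A litters, replicate 2, the library with the squamous transcripts, only Ifitm6 and Ifit2 were called. Bst2, Gbp2 and Ifi27 then had log2 fold changes of 0.64, 0.74 and 0.88 and adjusted p of 0.0563, 0.0533 and 0.0512 (edgeR). The Ifit2 call was lost without control replicate 3 (log2 fold change -0.61, adjusted p = 0.0713, edgeR), Bst2 without S226A replicate 2 (0.66, adjusted p = 0.0527) and Gbp2 without S226A replicate 4 (0.72, adjusted p = 0.0534). Ifitm6 kept its call in each of these fits. By the stringent criteria of adjusted p below 0.01, a change of more than 2-fold and a standard error below 1, 2 members remained, Ifitm6 and Ifi27 (2.1% of all genes).

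**Figure D2:**
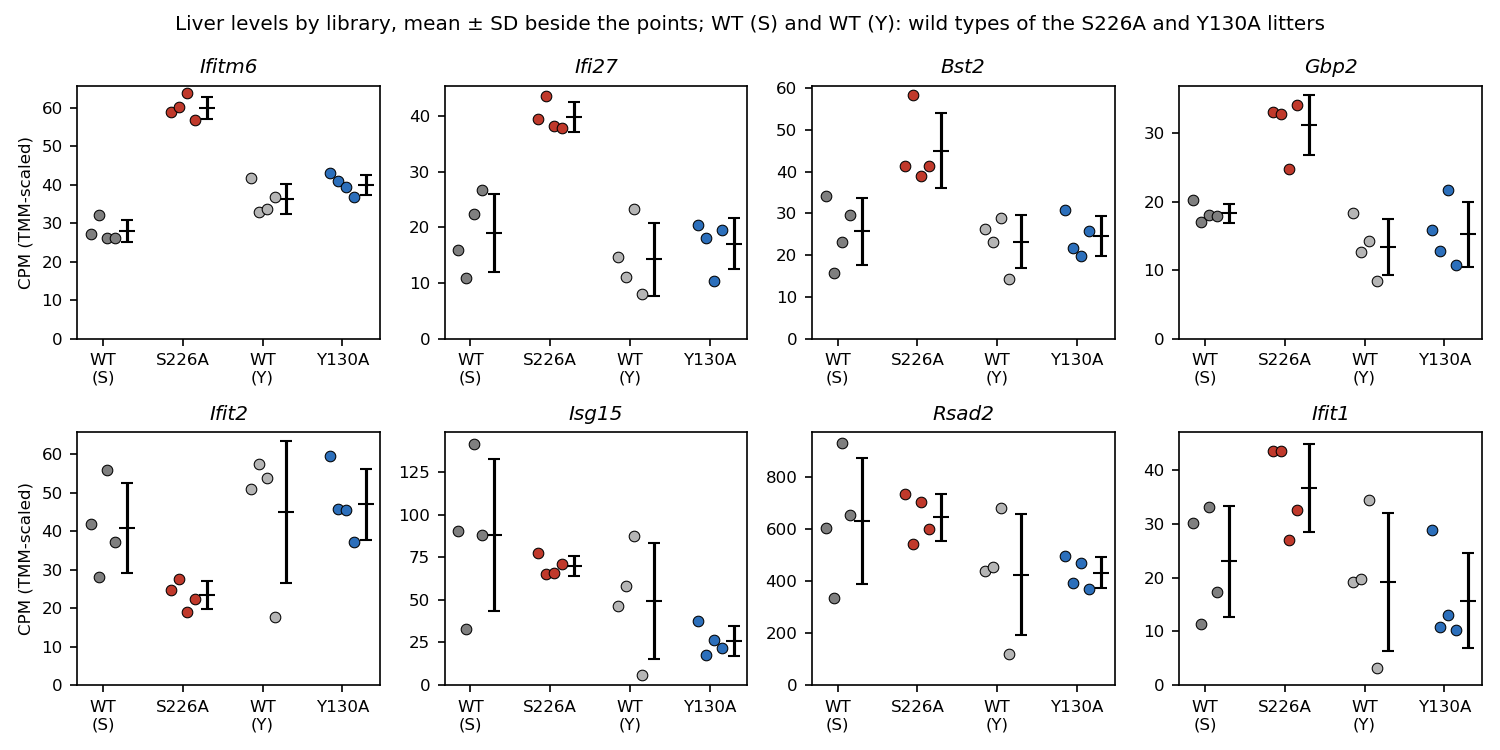
Liver CPM of 8 members in each library, with the mean and SD of each group beside the points. The top row starts with Ifitm6, Ifi27, Bst2 and Gbp2, which are higher in the 4 S226A livers than in all 4 controls of their litters. Ifit2 is lower, and Isg15, Rsad2 and Ifit1 overlap between mutants and controls.

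The sentinel genes spread widely among controls. Isg15 measured 77.8, 65.2, 66.1 and 71.4 CPM in S226A livers, inside the control values of 90.2, 32.8, 141.6 and 88.3 CPM. Its log2 fold change was -0.33 with a 95% interval from -1.23 to 0.57. Rsad2 measured 735.1, 542.0, 706.5 and 601.4 CPM against 606.5, 335.5, 931.9 and 654.0 CPM, a log2 fold change of 0.03 (interval -0.70 to 0.77). Ifit1 measured 43.6, 43.6, 27.0 and 32.6 CPM against 30.2, 11.4, 33.2 and 17.4 CPM, a log2 fold change of 0.67 with an interval from -0.39 to 1.73. For Isg15 and Rsad2 the interval left out a doubling, while for Ifit1 it did not.

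By role, 0 of 9 sensors and adaptors passed the test in S226A liver. Ifih1, Ddx58 and Mavs had log2 fold changes of -0.10, -0.14 and -0.10, and Tmem173 had 0.42 (adjusted p = 0.158, edgeR). Eif2ak2, the kinase PKR, stood at -0.28 and Adar at -0.23. Zbp1 and Samhd1 stood at 0.93 and 0.35, with adjusted p of 0.393 and 0.0799. All 6 genes of the oligoadenylate synthetase family, whose active enzymes make short oligoadenylates in response to double-stranded RNA, had positive log2 fold changes, from 0.11 for Oas2 through 0.17 for Oasl2 and 0.57 for Oas1a to 1.00 for Oas3, and 0 passed. Oas1a and Oas1g are near copies, as are Ifit3 and Ifit3b, so their counts may be split. Oas3 measured 76.5, 92.3, 74.7 and 56.9 CPM in S226A livers and 43.4, 15.6, 53.5 and 37.5 CPM in controls, which did not overlap (adjusted p = 0.139, edgeR). Of the 4 transcription factors, Stat2 (-0.27), Irf9 (-0.29), Irf1 (0.23) and Irf3 (0.14) did not pass. The Ifitm family, entry blockers encoded side by side on chromosome 7, had log2 fold changes of 0.49, 0.33 and 0.40 for Ifitm1, Ifitm2 and Ifitm3 beside the called Ifitm6. Ifitm2 shares 40.9% of its exon bases with Gm45717 on the same strand, so its count is uncertain. Ifit3, a partner of Ifit1, had -0.41. Usp18, the protease that removes Isg15 from its targets, had -0.04 and Herc6, the Isg15 ligase, 0.13.

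Groups of libraries did not overlap for 10 members in S226A liver, 8 with mutants higher and 2 with mutants lower. That was 21.3% of the members, against 11.9% of all genes. Beside the 5 called genes these were Zbp1, Oas3, Irf1 and Ifitm2, higher, and Stat2, lower. The 95% interval lay below a doubling for 34 members (78.6% of all genes).

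**Figure D3:**
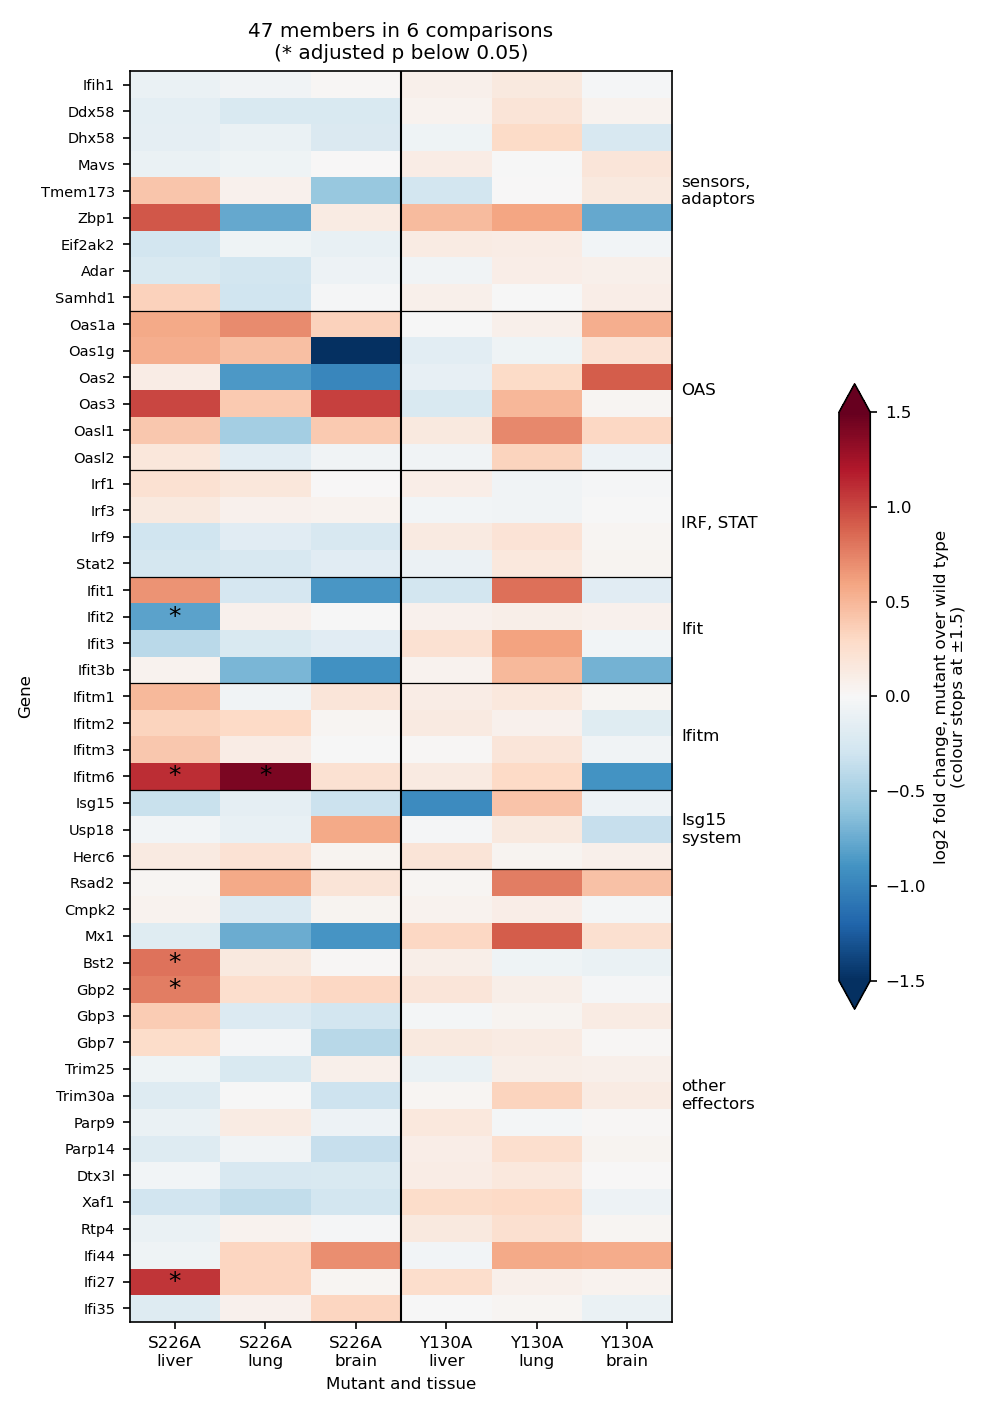
Log2 fold change of mutant over wild type for the 47 members in 6 comparisons, grouped by role, with red for higher and blue for lower in the mutant and the colour stopping at 1.5 in either direction. Asterisks mark adjusted p below 0.05 (edgeR), 5 for the liver and 1 for the lung of S226A and 0 in the other 4 columns.

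Markers of blood cells moved with genotype in the same S226A livers. All 10 neutrophil markers rose, their summed level going from 2905 to 3584 CPM in controls to 8348 to 9116 CPM in mutants, without overlap. Of 7 granulocyte precursor markers 6 rose (499.0 to 571.9 CPM against 1220 to 1652 CPM), and of 7 monocyte markers 5 rose and Fcgr1 fell (263.2 to 283.4 CPM against 583.2 to 653.4 CPM). Of 12 macrophage markers 11 fell, from 1083 to 1262 CPM to 303.3 to 432.4 CPM, and Vsig4, a marker of resident liver macrophages, was at 0 in all 4 S226A livers. B lineage markers fell for 4 of 8 and endothelial markers for 2 of 7. In the plasmacytoid dendritic cell list of 7 genes, Siglech and Tcf4 fell, while Bst2, itself a member, rose. Siglech fell to a mean of 0.0231 CPM from 1.34 CPM. Its level was similar in wild-type brain of these litters (mean 1.22 CPM) and fell there too (0.038 CPM in S226A), so its cell source was not settled. The 8 of 9 squamous markers called lower came from the control replicate 2 described above, and 1 of 7 neuronal markers, Map2, fell. No gene was called among the T and NK, erythroid, hepatocyte and lung epithelium lists in S226A liver. What part these markers had in the member results was not tested.

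S226A lungs had 1 called member, Ifitm6. It measured 2.85, 3.17, 2.24 and 2.23 CPM in the 4 mutants and 1.55, 0.584, 0.751 and 1.04 CPM in controls, with no overlap. The log2 fold change was 1.42 ± 0.29 (SE, adjusted p = 0.00332, edgeR). This was 2.13% of the members higher and 0 lower, against 0.852% and 1.02% of all genes, and Ifitm6 also met the stringent criteria (0.302% of all genes). With only the 8 lung libraries in the fit the log2 fold change was 1.40 and the call was lost (adjusted p = 0.397), and over all alternatives the fold change stayed between 1.22 and 1.74. Neutrophil markers moved here as well, with 7 of 10 called higher and summed levels of 182.2 to 238.9 CPM in mutants against 72.8 to 119.0 CPM in controls. In the monocyte list 1 marker rose and 1 fell, and Siglech had no count in the 4 mutant lungs. Their part was not tested.

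Other members of S226A lung did not pass. Isg15 (5.28, 6.62, 5.82 and 5.16 CPM in mutants, 9.33, 3.10, 9.67 and 3.01 CPM in controls) had a log2 fold change of -0.14, and Rsad2 one of 0.57. Samhd1, at -0.30, was the other member whose groups did not overlap, lower in mutants, which made 2 of 47 against 3.81% of all genes. The median over members was -0.06 and over all genes 0.00. Bst2, Gbp2 and Ifi27, called in liver, stood at 0.14, 0.26 and 0.32 in lung, and Ifit2 stood at 0.07.

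In S226A brain 0 of 47 members were called by edgeR and 0 by DESeq2, where 0.0592% of all genes were called higher and 0.184% lower. At an unadjusted p below 0.05, edgeR gave 2 members, Tmem173 (-0.56) and Oas1g (-2.06), against 2.27% of all genes, and DESeq2 gave 2. Oas1g averaged 0.0718 CPM in mutants and 0.2997 CPM in controls, which is a handful of reads per library. Oas3 and Ifi44 were higher in every mutant brain than in every control, 2 of 47 members against 2.48% of all genes.

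Y130A embryos showed no called member in any tissue. In Y130A liver 0 of 47 passed by edgeR or DESeq2, where 0.207% of all genes were called higher and 0.0651% lower. Isg15 alone had an unadjusted p below 0.05 in edgeR (1 member, against 9.22% of all genes), and DESeq2 gave 0. It measured 37.75, 17.4, 26.5 and 21.7 CPM in Y130A livers and 46.6, 58.3, 87.8 and 5.61 CPM in controls, so the groups overlapped (log2 fold change -0.94, adjusted p = 0.515, edgeR). Rsad2 measured 495.9, 393.4, 470.0 and 371.1 CPM against 440.1, 455.8, 683.5 and 117.8 CPM, a log2 fold change of 0.03. No member separated the groups fully, against 2.35% of all genes. The 4 genes higher in S226A liver stood at 0.14 (Ifitm6), 0.26 (Ifi27), 0.08 (Bst2) and 0.19 (Gbp2) here, and Ifit2 at 0.07.

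In Y130A lung 0 of 47 members were called by either tool, with 0.0118% of all genes called higher and 0.00592% lower. Mx1 was the only member at an unadjusted p below 0.05 by edgeR (0.91, against 2.92% of all genes), and DESeq2 gave 1 member. Log2 fold changes were positive for 40 of 47 members (85.1%) and for 48.2% of all genes, with medians of 0.16 and 0.00. The 3 control lungs included wild-type embryo 4 of litter 2848, whose score was the lowest of its group in every tissue. They lacked wild-type embryo 6 of litter 3069, whose lung the study left out as an outlier and whose score was the highest of its group in liver (0.55 above the mean) and brain (0.23 above). What part these embryos had in the signs of the changes was not tested. Rsad2 was 17.9, 15.3, 16.9 and 16.2 CPM in Y130A lungs and 5.37, 11.95 and 11.8 CPM in controls, and it was the 1 member without overlap (4.16% of all genes).

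In Y130A brain 0 of 47 were called by either tool, where 0.00592% of all genes were called higher and 0% lower. No member had an unadjusted p below 0.05 in edgeR (2.22% of all genes) or in DESeq2. Oas2 was higher and Ifitm2 lower in every mutant brain, 2 members against 4.75% of all genes.

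The width of the intervals limits these negative results. The 95% interval of the log2 fold change lay below a doubling for 41 members in lung and 38 in brain of S226A, 42 in Y130A liver, 34 in Y130A lung and 36 in Y130A brain, against 80.2% to 83.0% of all genes in these comparisons. For the remaining members a doubling was not excluded at this depth and spread. In brain, Zbp1, Oas1g and Ifitm6 each reached a median of 5 counts per library or fewer.

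The effect of S226A was then compared with that of Y130A in 1 fit. In liver 1 member differed, Ifitm6, with a log2 difference of 0.96 ± 0.29 (SE, adjusted p = 0.036, edgeR), while 5.9% of all genes differed. Ifitm6 rose in S226A liver as given above and measured 42.9, 41.0, 39.4 and 36.75 CPM in Y130A livers against 41.6, 32.9, 33.8 and 36.9 CPM in controls. The call was lost when the Y130A set was thinned to the depth of the S226A set (log2 difference 0.97, adjusted p = 0.0606, edgeR) and in 11 of 16 fits that left out 1 library. Over all 22 alternatives the difference stayed between 0.89 and 1.04, with adjusted p from 7.194e-05 to 0.0742. Bst2 and Ifit2 differed by 0.73 and -0.87 with adjusted p of 0.166 and 0.0789, so a difference between the mutants was not shown for them. In lung and brain 0 members differed, against 0.308% and 0.0829% of all genes. At an unadjusted p below 0.05, lung gave 2 (Mx1 and Ifitm6, against 9.8% of all genes) and brain 2 (Tmem173 and Oas2, against 2.29%), and DESeq2 gave 2 and 3.

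A score per library, the mean over the 47 members of log2(CPM + 1), put the group differences beside the spread of embryos. S226A livers scored 5.45 ± 0.12 and their controls 5.29 ± 0.33 (SD, n = 4 each). Y130A livers scored 5.04 ± 0.15 and their controls 4.91 ± 0.61 (SD, n = 4 each). In lung the mutant minus wild-type differences were 0.05 for S226A and 0.21 for Y130A, and in brain -0.03 and 0.02. Each difference was smaller than the SD of its control group. The mutant exceeded its wild-type littermate in 3, 2 and 2 of 4 litters for S226A liver, lung and brain, and in 2 of 4, 3 of 3 and 2 of 4 litters for Y130A.

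**Figure D4:**
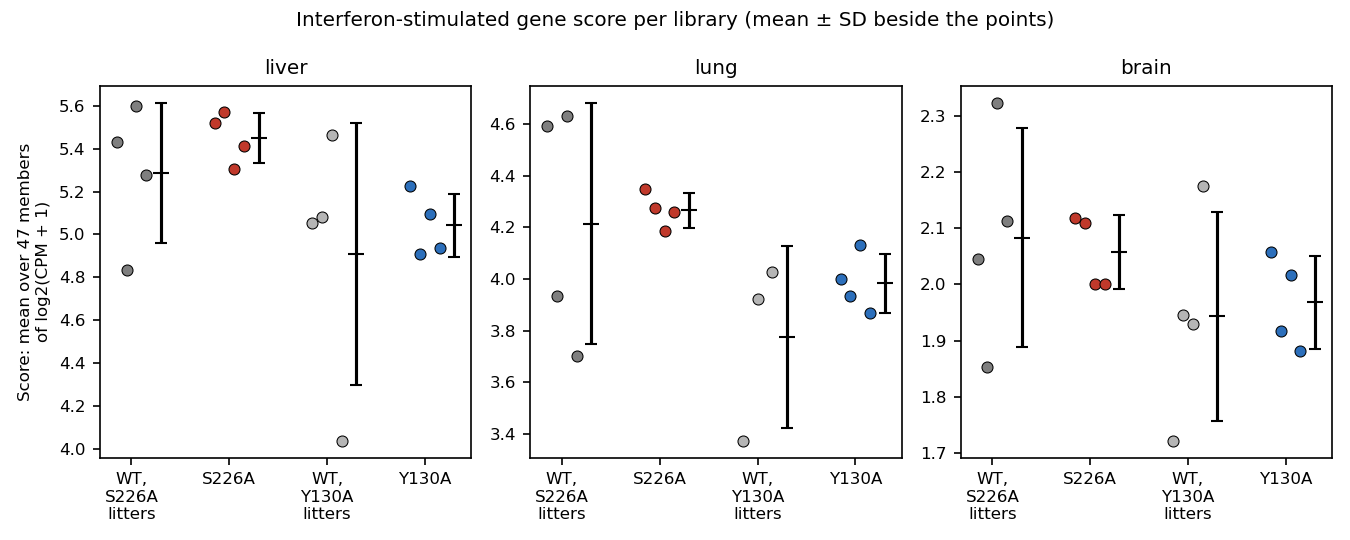
Score of each library, the mean over 47 members of log2(CPM + 1), by tissue and group, with the mean and SD beside the points (n = 4, or 3 for wild-type lung in Y130A litters). Mutant points lie close together and within or near the wider range of their controls, and tissues differ far more than genotypes.

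Deviations from the group mean tended to be shared by the tissues of an embryo. Of the 14 embryos with all 3 tissues, 12 deviated the same way in liver, lung and brain, 6 upward and 6 downward. Wild-type embryo 4 of litter 2848 scored 0.87 below its group in liver, 0.40 below in lung and 0.22 below in brain, with 43, 42 and 40 of 47 members under the group mean, against 48.0%, 47.4% and 58.7% of all genes. Its liver Rsad2 was 117.8 CPM where the other 3 controls had 440.1 to 683.5 CPM. Wild-type embryo 6 of litter 2881, the source of the liver with squamous transcripts, scored 0.45, 0.28 and 0.23 below its group in the 3 tissues. Its summed squamous markers stood at 175.3 CPM in lung, within the 2.39 to 191.9 CPM of all lungs, and at 1.12 CPM in brain, and their part in the score was not tested. On the other side, wild-type embryo 5 of litter 2875 scored 0.31, 0.42 and 0.24 above its group, and its liver Isg15 was 141.6 CPM.

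The sharing was also described gene by gene. The Pearson r of an embryo's deviations in liver and in lung, over 14 embryos, had a median of 0.66 over members and 0.09 over all genes tested. The medians were 0.54 and -0.02 for liver and brain (16 embryos) and 0.51 and 0.07 for lung and brain (14 embryos). Values above 0.5 were reached by 33, 25 and 24 of the 47 members, against 9.53%, 5.23% and 8.50% of all genes. Trim30a, Parp14 and Usp18 had the highest values between liver and brain, 0.91, 0.88 and 0.86, and Tmem173 the lowest at -0.50. These are descriptions over embryos that share litters, and the members move together, so they are not independent. Without the embryos 2848-4 and 2881-6 the member medians fell to 0.31, 0.31 and 0.23, against 0.08, -0.02 and 0.05 for all genes. Values above 0.5 were then reached by 8, 15 and 7 of the 47 members, against 10.6%, 6.39% and 9.63% of all genes, so that the liver and lung and the lung and brain counts lost most of their size, and the liver and brain count less. Of the 12 embryos left with 3 tissues, 10 deviated in 1 direction.

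**Figure D5:**
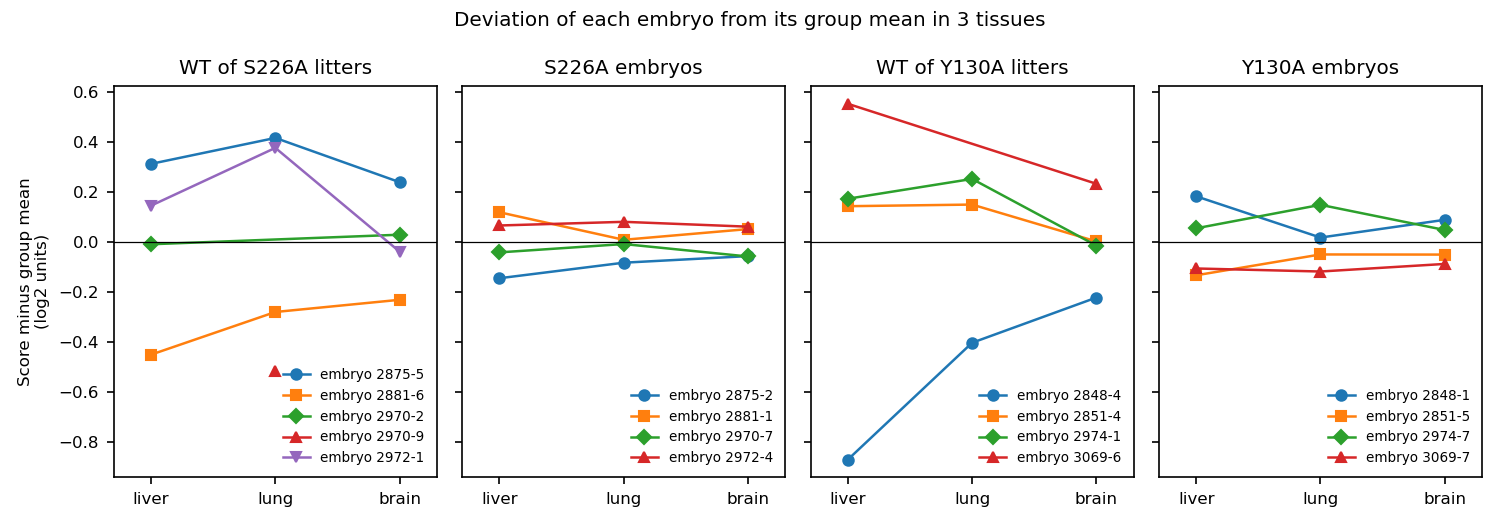
Score of each embryo minus its group mean in liver, lung and brain, in log2 units, with 1 line per embryo (a lone point for the embryo with only a lung library) and 1 panel per genotype and litter set. Lines stay on 1 side of 0 in 12 of 14 embryos with 3 tissues, and the wild-type panels span a wider range than the mutant panels.

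Wild-type embryos were more spread than mutants in these genes. The SD of log2(CPM + 1) was larger in controls than in mutants for 41 of 47 members in S226A liver, 43 in lung and 41 in brain, and for 45, 41 and 37 members in the Y130A comparisons. Over all genes the controls had the larger SD for 50.7%, 66.95% and 50.6%, and for 51.1%, 44.4% and 52.7%. The median SD over members in liver was 0.40 in controls and 0.18 in S226A, and 0.60 and 0.20 for Y130A. In some comparisons 1 embryo carried much of this. Without wild-type embryo 6 of litter 2881 the counts for S226A were 29 in liver, 43 in lung and 33 in brain, against 44.8%, 60.2% and 45.4% of all genes. In S226A lung the count stayed between 41 and 43 whichever control was left out. Without wild-type embryo 4 of litter 2848 the counts for Y130A were 32 in liver, 19 in lung and 29 in brain, against 47.03%, 36.6% and 47.5% of all genes, and in brain the count was 28 without wild-type embryo 6 of litter 3069. Spread was not tested, with 3 or 4 libraries in a group.

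The wild types of the 2 litter sets were compared as well. In lung 15 members were called, 13 higher and 2 lower in the S226A litters, or 27.7% and 4.26% of the members against 10.8% and 9.24% of all genes. Oas2 measured a mean of 6.12 CPM in wild-type lungs of the S226A litters and 1.43 CPM in those of the Y130A litters (log2 difference 2.10 ± 0.47 SE, adjusted p = 0.00115, edgeR). Trim25, a ubiquitin ligase that activates RIG-I, had 103.4 against 57.6 CPM (0.84 ± 0.17 SE, adjusted p = 0.000408, edgeR). Isg15, Rsad2 and Mx1 differed by 1.55, 1.33 and 1.47, and Samhd1, Stat2 and Adar by 0.62, 0.63 and 0.60. Ddx58, Oas3, Ifit3b, Trim30a and Xaf1 were also higher, and Irf3 (-0.30) and Ifitm2 (-0.51) lower. The count was 0 when only these 7 libraries were fitted, and 4 without replicate 3 of the S226A litters or without replicate 1 of the Y130A litters, which are the embryos 2875-5 and 2848-4. Depth, litters and any difference in handling between the sets cannot be told apart here. In liver 0 members were called higher and 2 lower (Irf3 and Ifitm2), against 3.97% and 9.11% of all genes, and in brain 0 and 1 (Ifitm2), against 1.47% and 4.51%. Log2 differences were positive for 41 of 47 members in liver, 41 in lung and 34 in brain, against 42%, 49.5% and 39.1% of all genes. Their medians over the members were 0.35, 0.56 and 0.29, and over all genes -0.04, 0.00 and -0.06. The liver count rose to 14 without wild-type embryo 6 of litter 3069, which has no lung library here, to 8 without wild-type embryo 6 of litter 2881 and to 7 in DESeq2. In brain it was 5 when only the libraries compared were fitted, and 0 without replicate 2 or 4 of the S226A litters or replicate 3 of the Y130A litters. The order of the tissues by count therefore depended on the fit and on the embryos present.

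Other genes of the pathway were called only in S226A liver and lung among the 6 mutant comparisons. Of 21 interferon ligand genes listed, 13 had a row and 0 passed the filter. Ifng, the ligand with the most reads, reached 34 counts in all 47 libraries together and at most 10 in 1 library. Of 19 receptor and signalling genes tested, 3 rose in S226A liver and 0 fell, where 6.14% of all genes rose and 5.54% fell, and the median log2 fold change was 0.02 over the list and -0.01 over all genes. They were Ifnlr1, a receptor chain for interferon lambda (17.1 against 9.33 CPM, log2 fold change 0.87, adjusted p = 0.00516, edgeR), the kinase gene Ikbke (66.25 against 42.4 CPM, 0.64, adjusted p = 0.000119) and the adaptor gene Traf3 (45.1 against 28.9 CPM, 0.64, adjusted p = 6.507e-06).

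Among 16 tested genes of cytosolic DNA sensing and nucleases, 0 rose in S226A liver, and those that fell included Ifi209, Ifi207 and Mndal. These belong to the AIM2-like receptor cluster and have near relatives, so that reads between copies may be split. They fell by 1.24, 1.06 and 0.86 on the log2 scale (adjusted p = 0.0167, 0.0135 and 0.0209, edgeR). In S226A lung Ifi207 alone of the 16 fell, by 1.23 (adjusted p = 0.0301, edgeR), where 1.02% of all genes fell.

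Of 56 further interferon-stimulated genes tested, 3 rose and 2 fell in S226A liver, which is no more than the 6.14% and 5.54% of all genes, and the list's median log2 fold change was -0.01, as over all genes. Gbp8 fell most, from a mean of 15.1 to 2.63 CPM (log2 fold change -2.51, adjusted p = 2.843e-06, edgeR). Slfn2 and Slfn1, Schlafen genes of haematopoietic cells, rose by 1.00 and 1.09 (adjusted p = 0.000134 and 0.0134, edgeR). Parp11 fell by 0.32 (adjusted p = 0.0254, edgeR), and Tdrd7 also rose. None of the 3 tested lists held a called gene in S226A brain or in any Y130A tissue, and the list of 56 held none in S226A lung.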

How the data were processed

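The authors aligned reads to GRCm38.p6 with STAR (2.6.0b) and counted them per gene of GENCODE M19, and deposited raw counts for 47 libraries. Trim Galore (0.6.5) and FastQC (0.11.5) are named in the submitters' processing notes, and the strand setting is not given in the sources used here. All columns of the table were mapped to a sample by title. Symbols, positions and exon lengths came from GENCODE M21 on GRCm38, with 32 IDs unmatched.

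The members and gene lists were chosen with earlier results of these data known. All libraries were fitted together in edgeR (4.0.16, R 4.3.3) with 12 group coefficients, TMM scaling, filterByExpr (minimum count 10, total 15) and the quasi-likelihood test. P-values were adjusted by Benjamini-Hochberg over all 16892 genes, and a gene was called at an adjusted p below 0.05. Intervals are 95%. DESeq2 (1.42.0) and other settings were alternatives, and the fits were tested on simulated data. Replicates were separate embryos. Named genes were all members called in a mutant comparison, 20 sentinel, sensor and regulator genes, up to 4 called genes of lowest adjusted p in each pathway list, and Tmem267. Other members, marker genes and embryos named were picked after their values were seen. A result within the pathway lists is not reported here. Thinning the Y130A libraries and leaving out 2 embryos were also chosen after seeing the data.

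Litter numbers in the titles pair mutants with wild types. Residuals of same-litter libraries correlated above 0.1 in 18 of 23 pairs (mean 0.21, from -0.05 to 0.47), against a mean of -0.07 in 69 other pairs.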

Additional observations from a re-analysis of the deposited data

Results flagged for a closer look

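Dixon's ratio was computed in 66 groups of 4 libraries, for the score and for the 5 members called in a mutant, and 7 exceeded the critical value of 0.829. Chance gives about 5% of groups, or 1 in 20. Bst2 in S226A liver had 1 library at 58.3 CPM above the other 3, and Gbp2 had 1 S226A liver at 24.8 CPM below them. Gbp2 in S226A lung had 1 library at 21.0 CPM, above the rest. Ifi27 in S226A brain had 1 library at 3.47 CPM, below the rest. Ifit2 in the wild-type livers of the Y130A litters had 1 library at 17.6 CPM, below the rest, and it came from embryo 2848-4. Ifitm6 had 1 brain library at 0 CPM in the wild types of the S226A litters and 1 at 0.0187 CPM in Y130A brain. These brain values rest on a few reads.

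The S226A and Y130A effects on Ifitm6 in liver differed by 0.964 on the log2 scale in a test of the difference itself (adjusted p = 0.036, edgeR).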

How the results depend on the processing

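The 5 calls in S226A liver and the 1 in S226A lung kept their genes under DESeq2, size factors by RLE, no filter, the thinned Y130A set and the fit with litter as replicate block, where S226A liver again gave 5, S226A lung 1, the liver difference 1 and the other 6 paired counts 0. The replicate block changed no call. The stringent criteria left 2 members in S226A liver, 0 in the liver difference between mutants, and 0, 2 and 0 between the wild types in liver, lung and brain. Fitting only the libraries compared gave 6 in S226A liver (adding Oas3), 0 in S226A lung, and 0 and 5 between wild-type lungs and brains. DESeq2 gave 2 for the liver difference (adding Ifit2) and 7 between wild-type livers, where RLE gave 6. Thinning, added after seeing the data, gave 0 for the liver difference. The cause was not tested. Leaving out 1 library gave 2 to 5 in S226A liver, 1 in each S226A lung fit, 0 in the other 4 mutant comparisons, 0 to 2 for the liver difference, 2 to 14 between wild-type livers (14 without replicate 3 of the Y130A litters and 8 without replicate 2 of the S226A litters), 4 to 18 between lungs and 0 to 1 between brains (0 without replicates 2 or 4 of the S226A litters or replicate 3 of the Y130A litters). Score differences moved by less than the SD of the groups under the other summaries and pseudocount tried, but the median over members turned S226A brain to 0.04 and Y130A liver to -0.04. Leaving out 1 library gave 0.02 to 0.27, -0.12 to 0.19 and -0.10 to 0.05 for S226A liver, lung and brain and -0.16 to 0.32, 0.01 to 0.33 and -0.05 to 0.10 for Y130A, so that 4 of the 6 changed sign. Counts of a few reads limit Zbp1, Oas1g and Ifitm6 in brain.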
